A study of Mus musculus with 16 samples.

Results

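The data describe what 4-hydroxytamoxifen (4OHT, written 4OH-TM in the labels) did to cultured adult mouse neural stem cells that carried no Cre recombinase. Such cultures are the drug control of a study on Tlx, a nuclear receptor with the gene symbol Nr2e1 that keeps adult neural stem cells dividing. The arrays were chosen by their titles: 4 arrays titled Tlx(f/Z) with 4OH-TM, 2 at 36 h and 2 at 60 h, and 4 arrays titled Tlx(f/Z) with vehicle, 2 at each of the same times, which makes 8 of the 16 arrays of the series. The other 8 arrays have the same treatments and times in cultures whose genotype is written Tlx(f/Z;CreER). They are used below only for comparison.

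All 16 cultures share the genotype written Tlx(f/Z), so the vehicle cultures carry it too, and no array is from cells without it. The labels do not spell out the alleles, the dose, the vehicle, or the age and number of the animals. The design text calls the 2 arrays of each group biological replicates without naming separate animals or cultures, so the p-values rest on how far these duplicate arrays lie apart, which may be technical. No probe set was listed under the symbol Nr2e1 in the annotation used, so Nr2e1 was not analysed here and the genotype was not checked by it. The Esr1 probe set, which reports estrogen receptor alpha, the receptor whose ligand-binding domain is fused to Cre in CreER, separated the genotypes. Its signal lay between 12.9 and 29.7 on the 8 arrays without Cre, against 326 to 487 on the 8 CreER arrays.

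4OHT is the active metabolite of the breast cancer drug tamoxifen and binds estrogen receptors. In CreER it releases the recombinase to enter the nucleus, and cultures without Cre are grown alongside so that effects of the drug itself can be seen. The drug also binds proteins outside the estrogen receptor family, among them the sterol enzymes encoded by Ebp and Dhcr7, which together form the microsomal antiestrogen binding site. A cell that runs short of amino acids, or whose endoplasmic reticulum is overloaded, phosphorylates the initiation factor eIF2 and makes more of the transcription factor ATF4, which raises genes of amino acid synthesis and transport. This is known as the integrated stress response.

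The gene with the largest rise at 60 h, Trib3, and the one with the smallest p, Asns, are both known ATF4 targets, so promoters of this group are shown first. C/EBP-ATF response elements, where ATF4 pairs with a C/EBP protein, share the letters TGATGNAA. A search for this motif on both strands, over the 250 bases before each start site in RefSeq's promoter table (GRCm38.p6), found it in 4 of the 12 genes of the stress list that rose at 60 h and had a promoter in the table (33.3%). It was found in 4 of 20 other measured genes of that list (20.0%), in 141 of 6268 tested genes (2.25%) and in 1134 of all 32851 promoter windows (3.45%). A match is a description of the letters and not a measured site. The 100 bases around each match are given 5′ to 3′ on the gene's strand, with the motif, or its reverse complement, in capitals. Asns lies on the minus strand at chr6:7693210-7693309, Chac1 on the plus strand at chr2:119351003-119351102, Nupr1 on the minus strand at chr7:126625527-126625626, Gars on the plus strand at chr6:55037901-55038000, and Pck2, a gene outside the list that was picked after its values were seen, on the plus strand at chr14:55540117-55540216.
Asns: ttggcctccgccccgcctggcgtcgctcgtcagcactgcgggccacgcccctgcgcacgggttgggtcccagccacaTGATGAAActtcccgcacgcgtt
Chac1: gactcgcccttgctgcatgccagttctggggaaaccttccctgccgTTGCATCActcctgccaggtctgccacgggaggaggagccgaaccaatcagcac
Nupr1: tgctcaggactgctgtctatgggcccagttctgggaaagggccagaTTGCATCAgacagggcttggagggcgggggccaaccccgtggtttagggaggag
Gars: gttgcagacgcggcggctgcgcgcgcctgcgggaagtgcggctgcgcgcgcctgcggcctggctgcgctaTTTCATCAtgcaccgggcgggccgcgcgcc
Pck2: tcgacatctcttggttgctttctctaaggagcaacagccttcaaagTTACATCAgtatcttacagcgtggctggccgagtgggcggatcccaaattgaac
Counted from the start site, the motif began at -23 in Asns, and its complement at -30 in Gars, -193 in Chac1, -110 in Nupr1 and -103 in Pck2.

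Signals below are the deposited linear intensities after quantile normalisation of all 16 arrays, and a log2 change is 4OHT minus vehicle after adding 16 to each signal and taking log2. The added 16 shrinks the change of dim genes. A gene passed when its limma p-value, adjusted by Benjamini-Hochberg over the 7618 genes tested, was under 0.05. At 60 h, 565 genes passed (7.42%), of which 347 were higher (4.56%) and 218 lower (2.86%) with 4OHT. In all 565 the 4OHT and vehicle arrays at 60 h did not overlap, as in 2430 higher and 1894 lower genes among all tested. Groups that stand apart at 60 h are therefore a description of a called gene and no further support for its call. At 36 h no gene passed limma's threshold (0%), while 495 had an unadjusted p under 0.05. Over both times together 62 passed (0.814%), 37 higher (0.486%) and 25 lower (0.328%). Replicate arrays correlated at 0.990 to 0.992 across genes, and arrays of different groups without Cre at 0.979 to 0.991.

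The 60 h count rested on both arrays of each group. Leaving out vehicle replicate 1 gave 209 genes and leaving out vehicle replicate 2 gave 102. Leaving out 4OHT replicate 1 gave 95 and leaving out 4OHT replicate 2 gave 155, and 43 of the 565 genes passed in all 4 of these fits. With the signals as deposited, where array medians lay between 92.2 and 132.6, 13 genes passed. With each array scaled to a common median 183 passed. The ratio of 5′ to 3′ signal of the beta-actin control, a measure of RNA length, was 0.850 and 0.891 on the 4OHT arrays at 60 h, against 0.788 and 0.773 on the vehicle arrays, so these groups did not overlap. With the actin ratio as a covariate 372 genes passed at 60 h, and 271 of the 565 were among them. Some calls named below held neither with the signals as deposited, nor at a common median, nor with the actin covariate. They include Bbc3, Slc7a5, Cars, Dnajc3, Hyou1, Derl1, Fdps, Ctsa, Timeless, Wsb1, Ier5, Egr1, Map2, Sox4, Mt1, Gpx1, Gstp1, Ndufa5 and Cox8b. The actin ratio was lower on all 36 h arrays without Cre, at 0.548 and 0.647 with 4OHT and 0.593 and 0.666 with vehicle. The same ratio of the Gapdh control overlapped at 60 h, at 1.20 and 1.26 with 4OHT and 1.25 and 1.22 with vehicle. An exact permutation test of treatment within time gave p = 0.556 for the actin ratio and 0.444 for Gapdh. The smallest p that this test allows is 0.0556.

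Genes of the integrated and endoplasmic reticulum stress list were higher with 4OHT at 60 h. Of 35 measured members, 14 rose and 1 fell, against 4.56% and 2.86% of all genes tested, and the median change of the list was 0.23 where that of all genes was 0.019. Most of the genes that rose act in amino acid supply or ATF4 signalling, and 1, Sdf2l1, in the endoplasmic reticulum. Hspa5 and Hsp90b1, main chaperones of the endoplasmic reticulum, did not pass.

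Asns encodes asparagine synthetase, which makes asparagine from aspartate and is a standard ATF4 target. Its signal was 3028 and 2822 in 4OHT cultures at 60 h, against 1771 and 1658 in vehicle cultures. Both 4OHT arrays were far above both vehicle arrays, and the log2 change was 0.76 ± 0.0515 (SE; limma adjusted p = 2e-06), the smallest p of the 60 h comparison. At 36 h the values were 2132 and 2101 with 4OHT, against 2079 and 2054 with vehicle, a log2 change of 0.03 (limma adjusted p = 0.936). A second Asns probe set changed by 0.60 at 60 h (limma adjusted p = 6.9e-04).

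Trib3, a pseudokinase that feeds back on ATF4, had the largest rise. Its signal was 180.5 and 172 in 4OHT cultures at 60 h, against 74.0 and 56.8 in vehicle cultures, which did not overlap. The log2 change was 1.25 ± 0.142 (limma adjusted p = 3.04e-04). At 36 h it was 68.9 and 61.0 with 4OHT and 59.5 and 55.3 with vehicle, which did not pass. A second Trib3 probe set gave a smaller log2 change of 0.50 at 60 h that did not pass (limma adjusted p = 0.181).

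The transcription factors of the pathway differed in size of change. Atf5, itself translated when eIF2 is phosphorylated, had signals of 1065 and 989 with 4OHT at 60 h, against 632 and 585 with vehicle, and rose by 0.74 ± 0.069 (limma adjusted p = 4.19e-05). Atf4 had 3541 and 3439 with 4OHT at 60 h, against 2979 and 2901 with vehicle, and its mRNA rose by 0.25 ± 0.0463 (limma adjusted p = 0.00695). In both genes the arrays of the 2 treatments stood apart. Cebpb rose by 0.55 and Nupr1, a small stress-induced chromatin protein, by 0.55. Ddit3, which encodes the pro-death factor CHOP, had 141 and 140.1 with 4OHT and 104 and 146 with vehicle, overlapping values with a log2 change of 0.17 (limma adjusted p = 0.503). Atf3 lay under the filter on low values and was not tested.

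Genes that act on amino acids and glutathione moved with them. Chac1, an enzyme that degrades glutathione, had signals of 414 and 348 with 4OHT at 60 h, against 221 and 189 with vehicle. It rose by 0.84 ± 0.111 (limma adjusted p = 0.00109). Slc3a2, the heavy chain of several amino acid exchangers, rose by 0.31 and its partner Slc7a5, the light chain of the leucine transporter LAT1, by 0.36. Shmt2 and Mthfd2, mitochondrial enzymes of one-carbon metabolism, rose by 0.32 and 0.30, and the tRNA synthetase genes Gars and Cars by 0.24 and 0.23. The cystine transporter gene Slc7a11 had 78.4 and 76.0 with 4OHT, against 40.8 and 51.2 with vehicle, but did not pass (limma adjusted p = 0.0712).

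Several genes of the same kind stood outside the list. Eif4ebp1, the cap-dependent translation repressor 4E-BP1, had signals of 1704 and 1677 with 4OHT at 60 h, against 977 and 959 with vehicle, and rose by 0.79 ± 0.0665 (limma adjusted p = 2e-05). Pck2, the mitochondrial phosphoenolpyruvate carboxykinase, had 1547 and 1518 with 4OHT, against 1038 and 963 with vehicle, and rose by 0.61 ± 0.0541 (limma adjusted p = 3.01e-05). Both genes' arrays stood apart by treatment. Cth, which makes cysteine, had 161 and 134 with 4OHT, against 84.0 and 66.8 with vehicle, and rose by 0.84 (limma adjusted p = 0.009). Bcat1, the cytosolic branched-chain aminotransferase, had 454 and 409.9 with 4OHT, against 282 and 276 with vehicle, and rose by 0.60 (limma adjusted p = 0.00287). The seryl-tRNA synthetase gene Sars rose by 0.38.

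Other members work inside the endoplasmic reticulum. Hspa5, the major chaperone BiP, had 5194 and 5454 with 4OHT at 60 h and 5383 and 5269 with vehicle, so the groups overlapped (limma adjusted p = 0.996). Hsp90b1 changed by -0.15, Calr by -0.06, Pdia4 by 0.08 and Xbp1 by 0.13, none of which passed. Herpud1, a component of the degradation machinery of this organelle, changed by 0.87 and did not pass (limma adjusted p = 0.0556). Sdf2l1 rose by 0.49, and Dnajc3, which restrains the eIF2 kinases, was the list's member that fell, by 0.34. Kdelr3, a retrieval receptor for resident proteins of this organelle, rose by 0.85 (limma adjusted p = 0.0181). Hyou1 and Derl1, also of this organelle and outside the list, rose by 0.31 and 0.22.

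The number of stress genes that rose fell to 8 and 7 with vehicle replicate 1 and vehicle replicate 2 left out, and to 6 and 7 with 4OHT replicate 1 and 4OHT replicate 2 left out, and it was 5 with the signals as deposited. Trib3, Chac1, Asns, Atf5 and Slc3a2 passed in all 4 fits with an array left out, as did Eif4ebp1, Pck2, Bcat1 and Sars. The plot of array signals shows Asns, Trib3, Chac1 and Atf5 beside genes of the groups described next.

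**Figure D1:**
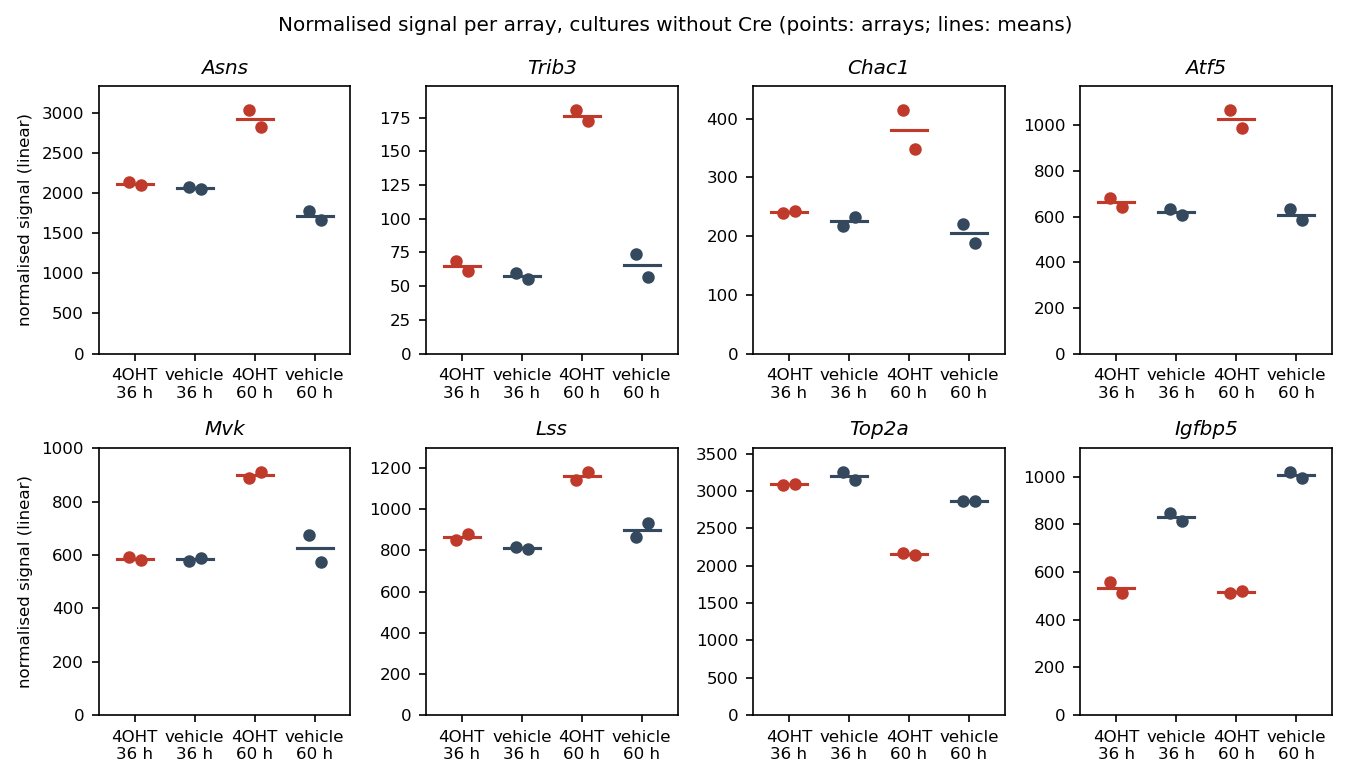
Normalised linear signal (vertical axes) of 8 genes on each array without Cre, with points for arrays and lines for the mean of the 2 arrays of a group; groups run from left to right as 4OHT and vehicle at 36 h, then 4OHT and vehicle at 60 h. Asns sits at 3028 and 2822 with 4OHT at 60 h, above the vehicle arrays at 1771 and 1658, while at 36 h its treatments lie close together; Igfbp5 is lower with 4OHT at both times.

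Sterol synthesis genes rose as well. Of 19 measured members, 10 rose at 60 h and none fell, against 4.56% and 2.86% of all genes tested, and the median change was 0.21. The genes that rose run from the mevalonate steps to the last reductions of the ring, but the first enzymes of the pathway and its regulators did not pass.

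Mvk, mevalonate kinase, had signals of 889 and 912 with 4OHT at 60 h, against 676 and 574 with vehicle. The arrays stood apart, and the log2 change was 0.52 ± 0.0799 (limma adjusted p = 0.00287). Mvd, which acts later in the mevalonate steps, rose by 0.44, Fdps by 0.11 and Fdft1, which encodes squalene synthase, by 0.23. Lss, lanosterol synthase, which closes the sterol rings, had 1141 and 1182 with 4OHT, against 866 and 935 with vehicle, and rose by 0.36 ± 0.0574 (limma adjusted p = 0.00358).

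The sterol enzymes known to bind tamoxifen were among these genes. Ebp, the sterol isomerase, had 1151 and 1147 with 4OHT at 60 h, against 900.3 and 891 with vehicle, and rose by 0.35 ± 0.0592 (limma adjusted p = 0.00439). Dhcr7, the reductase of the last step to cholesterol, had 2558 and 2467 with 4OHT, against 2137 and 2097 with vehicle, and rose by 0.25 ± 0.0542 (limma adjusted p = 0.0167). Neither gene's groups overlapped. The neighbouring ring enzymes Tm7sf2, Nsdhl and Sc5d rose by 0.49, 0.23 and 0.40.

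Hmgcs1, the synthase that starts the pathway, had 9907 and 9907 with 4OHT at 60 h, against 9704 and 9568 with vehicle, a log2 change of 0.04 (limma adjusted p = 0.52) near the top of the signal range. Idi1 changed by -0.01, Sqle by -0.09 and Msmo1 by -0.23, and none of them passed. Srebf2, the transcription factor of the pathway, changed by 0.05 (limma adjusted p = 0.705). All 12 measured genes of fatty acid synthesis had a positive change, of which Fasn, fatty acid synthase, at 0.31 and Thrsp at 0.30 passed. Among all genes tested, 4171 of 7618 had a positive change at 60 h and 4.56% rose. Aacs, which feeds ketone bodies into lipid synthesis, rose by 0.57 (limma adjusted p = 0.00397). The sterol count was 5 and 6 with vehicle replicate 1 and vehicle replicate 2 left out, 5 with either 4OHT replicate left out, and 0 with the signals as deposited, where the list's median was still 0.23. Mvk, Lss, Ebp and Fdft1 passed with each 60 h array left out in turn.

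Lysosomal genes had a smaller change in one direction. Of 26 measured members, 23 had a positive change at 60 h, with a median of 0.16. The number that rose was 6 and none fell, against 4.56% and 2.86% of all genes tested. Neu1, lysosomal sialidase, had signals of 366 and 370.2 with 4OHT, against 272 and 262 with vehicle, and rose by 0.44 ± 0.0875 (limma adjusted p = 0.00926). At 36 h the order was the other way, at 241 and 246 with 4OHT and 273 and 265 with vehicle, and did not pass. Ctsl, a cysteine protease, had 1803 and 1943 with 4OHT at 60 h, against 1547 and 1508 with vehicle, and rose by 0.29. The proton pump subunit Atp6v0d1, the hexosaminidase subunit Hexa, Ctsa and the cholesterol carrier Npc2 rose by 0.31, 0.28, 0.27 and 0.26. Flcn, a regulator of the kinase mTORC1 at the lysosome that is outside the list, had 857 and 782 with 4OHT, against 569 and 565 with vehicle, and rose by 0.52 ± 0.0725 (limma adjusted p = 0.00172). The lysosomal count was 5 and 2 with vehicle replicate 1 and vehicle replicate 2 left out, 1 and 3 with 4OHT replicate 1 and 4OHT replicate 2 left out, and 0 with the signals as deposited.

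Genes of cell division were lower with 4OHT at 60 h. Of 47 measured mitosis and G2/M genes, 41 had a negative change, 12 fell and 1 rose, with a median of -0.18. Of 43 genes of DNA replication and the G1/S transition, 39 had a negative change, 8 fell and 1 rose, with a median of -0.15. Among all genes tested 2.86% fell and 4.56% rose. At 36 h no member of either list passed. The 36 h medians were 0.028 for mitosis and 0.067 for replication genes, and with the signals as deposited they turned to -0.12 and -0.079, where the median of all genes was -0.15.

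Top2a, the topoisomerase that untangles sister chromosomes, had signals of 2176 and 2147 with 4OHT at 60 h, against 2872 and 2870.1 with vehicle. The groups did not overlap, and the log2 change was -0.41 ± 0.0411 (limma adjusted p = 9.45e-05). Mki67, the proliferation marker Ki-67, had 1828 and 2002 with 4OHT, against 2568 and 2545 with vehicle, and fell by 0.42 (limma adjusted p = 0.00638). Bub1, a kinase of the spindle checkpoint, fell by 0.44, and the condensin subunit gene Smc2 by 0.40. The mitosis member that rose was the kinesin gene Kif22, at 777 and 688 with 4OHT and 424 and 538 with vehicle, by 0.60 (limma adjusted p = 0.0196). Cdk1, the kinase that drives mitosis, had 2731 and 2939 with 4OHT and 2959.8 and 2941 with vehicle, and did not pass (limma adjusted p = 0.518).

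Among the replication genes, Chek1, the checkpoint kinase for stalled forks, had 123 and 117 with 4OHT at 60 h, against 183 and 197 with vehicle. It fell by 0.59 ± 0.117 (limma adjusted p = 0.00904). A second Chek1 probe set changed by -0.64 (limma adjusted p = 0.0374). Ccne2, cyclin E2, had 74.5 and 118 with 4OHT, against 159 and 168 with vehicle, and fell by 0.71 (limma adjusted p = 0.0213). Timeless fell by 0.47, the polymerase alpha gene Pola1 by 0.37 and the helicase subunit gene Mcm4 by 0.27, while Mcm6 changed by -0.03 and did not pass. Ccnd1, cyclin D1, rose by 0.14, with 8052 and 7807 with 4OHT, against 7044 and 7378 with vehicle.

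The count of mitosis genes that fell was 4 and 1 with vehicle replicate 1 and vehicle replicate 2 left out, and 1 and 6 with 4OHT replicate 1 and 4OHT replicate 2 left out. The count of replication genes that fell was 4 and 1, and 0 and 2, with the same arrays left out. With the signals as deposited both counts were 0, with medians of -0.17 and -0.12, and with the actin ratio as a covariate they were 7 and 4. Top2a was the member of either list that passed with each 60 h array left out in turn.

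Genes of other kinds also fell at 60 h. Ncl, nucleolin, had 2974 and 2989 with 4OHT, against 3708 and 3813 with vehicle, and fell by 0.33 ± 0.0403 (limma adjusted p = 5.91e-04). Hnrnpd fell by 0.40 (limma adjusted p = 8.02e-04) and the splicing-associated gene Pnn by 0.55. The nuclear pore and import genes Ranbp2 and Tnpo1 fell by 0.62 and 0.61, and the ribosome biogenesis gene Bms1 by 0.69. Pon2, Wsb1, Phxr4 and Plagl1, a zinc-finger gene that restrains growth, fell by 0.63, 0.58, 0.75 and 0.61.

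Of 25 measured p53 targets and CDK inhibitors, 1 rose at 60 h and none fell, with a median of 0.0064. A share of 1 in 25 is near the 4.56% of all genes that rose. Cdkn1a, which encodes the CDK inhibitor p21, had signals of 2461 and 2853 with 4OHT, against 2503 and 2164 with vehicle. These groups overlapped (limma adjusted p = 0.215). The gene that rose was Bbc3, which encodes the death factor PUMA, at 146 and 137 with 4OHT and 86.3 and 95.4 with vehicle, by 0.56 (limma adjusted p = 0.0307).

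The cells carried some stem cell markers under both treatments. Of 28 stem cell genes on the array, 21 were measured. The other 7 were Sox1, Prom1, Gfap, Hes5, Fut4, Gli1 and Gli2. They stayed below the signal of the filter on low values on all 8 arrays without Cre. Fabp7, a fatty acid binding protein of radial glia, had 5045 and 4830.5 with 4OHT at 60 h, against 5891 and 6014 with vehicle, and fell by 0.27 (limma adjusted p = 0.0154). Sox2, a transcription factor of neural stem cells, had 1336 and 1333 with 4OHT, against 1642 and 1638 with vehicle, and fell by 0.29 ± 0.0555 (limma adjusted p = 0.00707). With Mki67 these made 3 of 21 measured stem cell genes that fell, against 2.86% of all genes, with none that rose and a median of -0.13. Nes at -0.13 and Vim at 0.04, both intermediate filament genes, did not pass, and neither did Pax6, Olig2, Egfr, Notch1 or Slc1a3.

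In bulk RNA, fewer cells of a type and less RNA of that type per cell cannot be told apart. The summed signal of the 28 stem cell genes on the array was 36112.1 to 38504.4 with 4OHT, against 38962.2 to 39745.2 with vehicle, over all 8 arrays. Several markers of differentiated types stayed below the filter signal of 51.4 on all 8 arrays. Among them were Gfap and Aqp4 for astrocytes, Tubb3, Dcx, Rbfox3 and Snap25 for neurons, and Mbp and Mog for oligodendrocytes. Other members passed the filter, 14 of 21 astrocyte, 12 of 27 neuronal and 6 of 15 oligodendrocyte genes. The oligodendrocyte genes summed to 12198.3 to 13319.3 with 4OHT, against 12176.6 to 13442.5 with vehicle. The 21 astrocyte genes summed to 18790.4 to 19239.3 with 4OHT, against 19303.1 to 20139.2 with vehicle. Of the 14 measured astrocyte genes, Acsbg1 rose by 0.30 and Sparcl1 fell by 0.28 at 60 h, against 4.56% and 2.86% of all genes. Of 12 measured neuronal genes, Map2 and Sox4 fell, by 0.31 and 0.19, against 2.86% of all genes, and none rose. The 27 neuronal genes on the array summed to 6209.6 to 6574.3 with 4OHT, against 6344.8 to 6955.7 with vehicle.

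Of cells from outside the neural lineage there was little signal. The 14 microglial genes summed to 335.7 to 364.4 with 4OHT, against 249.4 to 310.0 with vehicle, and 13 of them, Aif1, Cx3cr1 and Ptprc among them, were under the filter signal on all 8 arrays. The endothelial and mural genes summed to 417.7 to 641.0 with 4OHT, against 446.5 to 596.0 with vehicle, and the fibroblast genes to 783.5 to 931.4 with 4OHT, against 797.6 to 863.7 with vehicle. Pecam1, Cdh5, Col1a1, Col3a1 and the ependymal marker Foxj1 were under the filter signal on all 8 arrays. Fn1, fibronectin, rose by 0.32 at 60 h (limma adjusted p = 0.0121). What part these markers have in the changes above was not tested.

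Genes of the drug's own receptors were looked at next. Of 6 measured genes of estrogen receptors and their cofactors, Esrra, an orphan receptor related to them, rose at 60 h, with 293 and 303 with 4OHT, against 220.1 and 204 with vehicle, a log2 change of 0.46 ± 0.113 (limma adjusted p = 0.0265). The cofactor genes Ncoa2 and Ncoa3 changed by 0.08 and 0.33, and neither passed. Esr1 was among the 6 through its signal on the CreER arrays, and with at most 29.7 on the arrays without Cre it was too dim there for its change to be read. Esr2 and Pgr lay under the filter on low values. Of 12 measured genes known to respond to estrogen in other tissues, 1 rose, Ccnd1. Among all genes tested 4.56% rose at 60 h. The aryl hydrocarbon receptor targets Cyp1a1 and Cyp1b1 lay under the filter, while Tiparp at 0.04 and Nqo1 at 0.15 did not pass. Of 8 genes of drug conjugation, the glutathione transferase genes Gstm1 and Gstp1 rose by 0.25 and 0.19.

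Counts of the next lists are to be read against the 4.56% of all genes tested that rose at 60 h and the 2.86% that fell. Among 24 immediate early genes, 4 rose and 1 fell at 60 h. Klf2, a Kruppel-like factor, had 314 and 318 with 4OHT, against 163 and 189.8 with vehicle, and rose by 0.79 ± 0.139 (limma adjusted p = 0.00515). Dusp1, a phosphatase that switches off MAP kinases, had 731 and 733 with 4OHT, against 523 and 492 with vehicle, and rose by 0.52 (limma adjusted p = 0.00405). Ier3 and Ier5 rose by 0.36 and 0.32, whereas Egr1 fell by 0.34, with 1697 and 1778 with 4OHT, against 2105 and 2316 with vehicle. Of 49 respiratory chain genes, 7 rose, led by Ndufs7 at 0.25, and Ndufa5 fell by 0.23. Of 10 interferon and antigen presentation genes, Ifitm3 rose by 0.27 and H2-K1 by 0.53. Of 15 NRF2 targets, Mt1 rose by 0.37 and Gpx1 by 0.20, and of 16 heat shock genes Dnaja1 fell by 0.26 and Hspd1 by 0.16. Of 23 hypoxia and glycolysis genes none passed by limma, 2 had an unadjusted p under 0.05, and the median change was -0.01. Of 35 Notch, Wnt and BMP pathway genes 1 passed, Tgfbr1, which fell by 0.40, a share close to the 2.86% of all genes.

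Some of the largest 60 h changes rested on 1 probe set. Slc35b4, a nucleotide sugar transporter gene, had 344 and 261 with 4OHT, against 147 and 184 with vehicle, and rose by 0.81. Its other probe sets changed by -0.02 and 0.02 and did not pass. Sema4b, a semaphorin gene, had 398 and 328 with 4OHT, against 175 and 231 with vehicle, and rose by 0.79, and the unnamed gene AI413582 rose by 0.74.

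Over both times together, the genes that rose were again led by Trib3 at 0.70 ± 0.1 (limma adjusted p = 0.00386), Chac1 at 0.47, Eif4ebp1 at 0.45, Bcat1 at 0.44, Atf5 at 0.42 and Asns at 0.40. For Asns, Trib3, Chac1, Atf5 and Eif4ebp1 the 60 h difference was above that at 36 h, as tested below. For Igfbp5, Malat1, Acss1, Ppp1r3c and Gatm, which fell over both times, the difference between the times did not pass.

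Igfbp5, which encodes a secreted protein that binds insulin-like growth factors, fell most. Its signals were 557 and 511 with 4OHT and 848 and 816 with vehicle at 36 h, and 514 and 519 with 4OHT and 1021 and 996 with vehicle at 60 h. All 4 arrays with 4OHT lay below all 4 with vehicle. The log2 change was -0.78 ± 0.0986 over both times (limma adjusted p = 0.00138), -0.63 at 36 h (0.387) and -0.94 at 60 h (0.00259). A second Igfbp5 probe set changed by -0.42 over both times and did not pass (limma adjusted p = 0.56).

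Malat1, a long nuclear noncoding RNA, had 978 and 902 with 4OHT and 1138 and 2149 with vehicle at 36 h, and 1309 and 1438 with 4OHT and 2176 and 2426 with vehicle at 60 h. It fell by 0.73 over both times (limma adjusted p = 0.0207), though the 2 vehicle arrays at 36 h were far from each other. Its other 4 probe sets changed by -0.90 to -0.52. Acss1, the mitochondrial acetyl-CoA synthetase, had 72.0 and 60.2 with 4OHT and 107 and 107 with vehicle at 36 h, and 66.0 and 69.4 with 4OHT and 118 and 100.5 with vehicle at 60 h. It fell by 0.58 (limma adjusted p = 0.0145), and its groups did not overlap at either time.

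Ppp1r3c, which directs a phosphatase to glycogen, had 392 and 379 with 4OHT and 546 and 504 with vehicle at 36 h, and 395 and 416 with 4OHT and 618 and 579.6 with vehicle at 60 h. It fell by 0.49 ± 0.0744 over both times (limma adjusted p = 0.00635). Gatm, which makes the creatine precursor guanidinoacetate, fell by 0.38 (limma adjusted p = 0.00335). Neither gene's groups overlapped at either time. The surface and signalling genes Thy1, Chl1, Camk1g and Atp1b2 fell by 0.39, 0.31, 0.30 and 0.27 over both times, Plagl1 by 0.36 and Aarsd1 by 0.37. Tmem158 fell by 0.34 by its brightest probe set, while its other probe sets changed by -0.02 and -0.06 and did not pass.

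Other genes rose over both times. H2-K1, a class I antigen-presenting protein gene, had 1525 and 1459 with 4OHT and 1342 and 1262 with vehicle at 36 h, and 1786 and 1844 with 4OHT and 1261 and 1246 with vehicle at 60 h. It rose by 0.36 ± 0.0422 over both times (limma adjusted p = 8.07e-04). It belongs to a family of near-identical genes, and its other probe sets changed by 0.18, 0.44 and -0.05, none of which passed, so its change is uncertain. Cystm1 rose by 0.53, with 296 and 269 with 4OHT and 221 and 178 with vehicle at 36 h, and 319.9 and 313 with 4OHT and 172 and 247 with vehicle at 60 h. Lhpp, the taurine transporter gene Slc6a6, Dusp1 and the mitochondrial ribosome gene Mrps6 rose by 0.42, 0.41, 0.34 and 0.32.

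The count of 62 genes over both times became 28 and 20 with 4OHT replicate 1 and replicate 2 at 36 h left out, 13 and 22 with those of 60 h left out, 38 and 24 with vehicle replicate 1 and replicate 2 at 36 h left out, and 39 and 26 with those of 60 h left out. Of the 24 genes with the largest changes, Trib3, Asns, Atf5, Eif4ebp1, Bcat1, H2-K1, Igfbp5, Gatm and Ppp1r3c passed in all 8 of these fits. With the signals as deposited 5 genes passed over both times, 1 of them higher and 4 lower, against 37 higher and 25 lower here.

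At 36 h no gene passed, and the genes with the smallest p are given as values. Tfrc, the transferrin receptor gene, had 2067 and 2165 with 4OHT at 36 h, against 1563 and 1669 with vehicle, a log2 change of 0.39 ± 0.0627 (limma adjusted p = 0.15). Its other probe sets changed by 0.32 and 0.06. Id3, a BMP-induced inhibitor of differentiation, had 1764 and 1695 with 4OHT, against 2047 and 2088 with vehicle, a log2 change of -0.26 (limma adjusted p = 0.168). The arrays of both genes stood apart by treatment, as did those of 1467 genes that were higher and 1311 that were lower with 4OHT at 36 h (of 7618), compared with 2430 and 1894 at 60 h. Septin8 changed by -0.50, Thy1 by -0.49, Crb3 by 0.77 and Clcn3 by 0.44 at 36 h, and none of them passed. With the signals as deposited the median of all genes was -0.15 at 36 h and 3 genes passed as lower. Tests of every probe set, or of the 8 arrays without Cre alone, let 1 through each.

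The response at 60 h differed from that at 36 h in 174 genes by a test of the difference itself (2.28%), of which 117 were higher (1.54%) and 57 lower (0.748%) at the later time. The 2 responses share no arrays. The difference was 1.11 ± 0.2 for Trib3 (limma adjusted p = 0.018), 0.73 ± 0.0729 for Asns (4.06e-04), 0.75 for Chac1 (0.0322), 0.69 for Eif4ebp1 (0.00642) and 0.65 for both Atf5 (0.00699) and Pck2 (0.00185). For Trib3 the second probe set differed by 0.25 between the times and did not pass. Mvk, Sc5d, Fasn and Flcn also had a higher change at 60 h than at 36 h, by 0.51, 0.54, 0.52 and 0.74, and the members of the lists that differed this way were 6 of 35 stress genes, 4 of 19 sterol genes and 5 of 26 lysosomal genes. Top2a, Chek1 and Ccne2 differed by -0.36, -0.70 and -0.96, among 4 of 47 mitosis and 7 of 43 replication genes.

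A few genes crossed between the times. Cox8b, a muscle-type subunit of cytochrome oxidase, had 68.6 and 69.5 with 4OHT at 36 h, against 130.3 and 131 with vehicle, but 244 and 213 with 4OHT at 60 h, against 125 and 124 with vehicle. The difference between the times was 1.59 ± 0.325 (limma adjusted p = 0.0301), and the 36 h change of -0.79 did not pass by itself. The 60 h rise of Cox8b passed narrowly (limma adjusted p = 0.048). That rise did not pass with the signals as deposited, with arrays scaled to a common median or with the actin ratio as a covariate. Hdac5, a class II histone deacetylase, had 643 and 662 with 4OHT and 778 and 874 with vehicle at 36 h, and 1026 and 985 with 4OHT and 821 and 807 with vehicle at 60 h, a difference of 0.63 (limma adjusted p = 0.00882). Clcn3 went the other way, with 528 and 458 with 4OHT and 335 and 385 with vehicle at 36 h, and 355 and 314 with 4OHT and 449 and 438 with vehicle at 60 h, though 2 of its 3 other probe sets differed by under 0.1. Across all 7618 genes the 36 h and 60 h changes correlated at -0.113 (Pearson) and -0.146 (Spearman), and 219 of the 565 genes called at 60 h had the same sign at 36 h. These are correlations across genes, which are not independent replicates.

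The 36 h and 60 h arrays without Cre differed in the actin ratio given above, and the time difference passed in 67 genes with it as a covariate. The count of 174 became 34 and 74 with 4OHT replicate 1 and replicate 2 at 36 h left out, 21 and 25 with those of 60 h left out, 32 and 54 with vehicle replicate 1 and replicate 2 at 36 h left out, and 55 and 28 with those of 60 h left out. With the signals as deposited 2 genes passed.

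The response without Cre was set against that of CreER cultures, in which 4OHT also switches on the recombinase. The 2 comparisons share no arrays. Over both times 62 genes passed without Cre, against 2954 in CreER cultures (38.8%), of which 1493 were higher (19.6%) and 1461 lower (19.2%). At 36 h alone none passed without Cre, against 1632 in CreER cultures (21.4%), 739 higher (9.7%) and 893 lower (11.7%), and at 60 h 565 passed without Cre, against 2263 in CreER cultures (29.7%). Of the 1493 genes higher with 4OHT in CreER cultures, 21 were also called higher without Cre, and of the 1461 lower ones 12 were also called lower. The 21 are 1.41% of the 1493, against 0.486% of all genes called higher without Cre. The 12 are 0.821% of the 1461, against 0.328% of all genes called lower. Together these calls in the same direction are 1.12% of the 2954. With only 62 calls without Cre these shares cannot be large. The shared genes were 56.8% of the 37 higher without Cre and 48% of the 25 lower, against 19.6% and 19.2% of all genes. The opposite call in CreER cultures was made for 6 of the 37 and 7 of the 25. The median change of the 1493 genes was 0.042 without Cre and 0.28 with CreER, and that of the 1461 was -0.027 without Cre and -0.27 with CreER. The test of the difference between the 2 responses called 1463 genes (19.2%), 773 of them higher without Cre (10.1%) and 690 lower (9.06%).

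**Figure D2:**
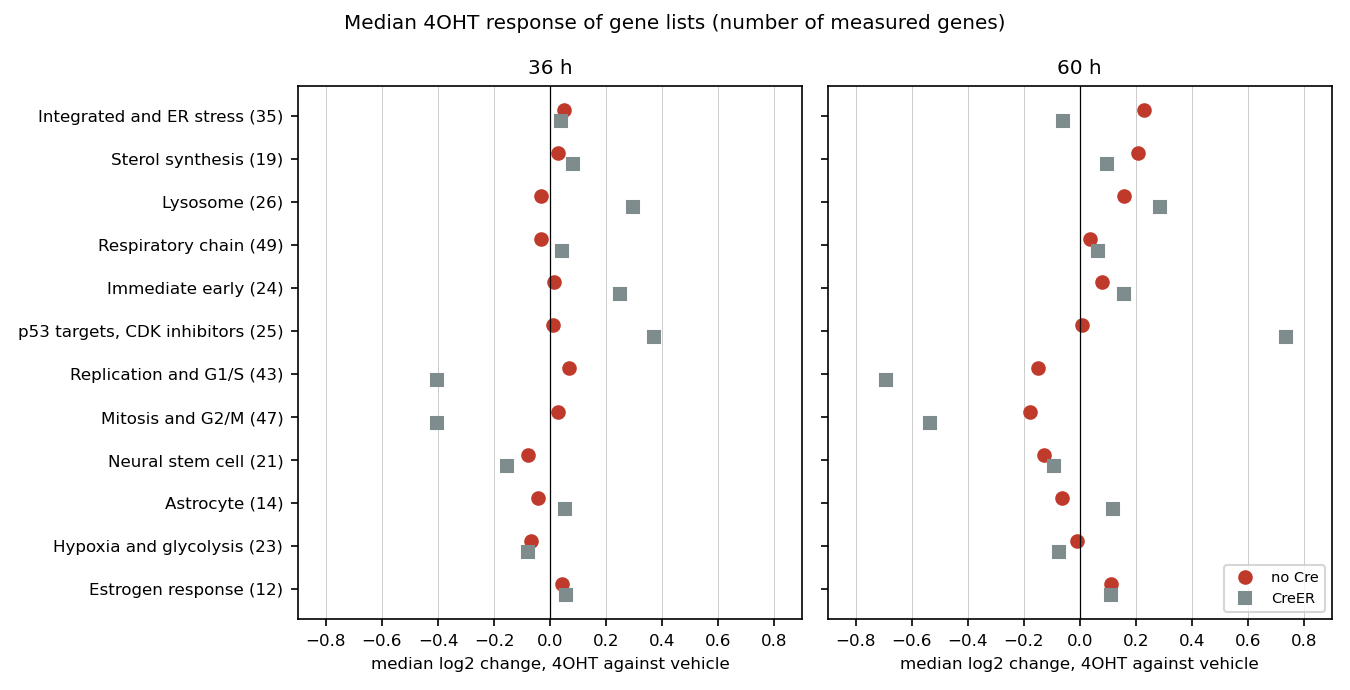
Median log2 change with 4OHT (horizontal axes) of 12 gene lists at 36 h and at 60 h, with circles for cultures without Cre, squares for CreER cultures and the number of measured genes in brackets. At 60 h the median of the stress genes was 0.23 without Cre and -0.059 with CreER, and that of the replication genes -0.15 without Cre and -0.69 with CreER.

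At 60 h the overlap was larger. Of 347 genes that rose without Cre, 153 also rose in CreER cultures, which is 44.1% of the 347 and 12.4% of the 1233 genes higher with CreER, and 16.2% of all genes tested were higher with CreER. Of 218 that fell without Cre, 109 also fell in CreER cultures (50% of the 218 and 10.6% of the 1030 lower with CreER), where 13.5% of all genes were lower. The opposite call in CreER cultures was made for 21 of the 347 and 19 of the 218. Across all genes the 60 h changes of the 2 genotypes correlated at 0.253 (Pearson) and 0.264 (Spearman), and the 36 h changes at -0.248 and -0.27.

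At 60 h replication and mitosis genes fell in both genotypes, fewer of them without Cre. Without Cre 8 of 43 replication genes fell, against 41 with CreER, and 12 of 47 mitosis genes, against 41 with CreER. Of all genes tested, 2.86% fell without Cre and 13.5% with CreER. The difference itself at 60 h passed as higher without Cre for 32 of the 43 replication and 15 of the 47 mitosis genes, against 5.82% of all genes, and as lower for none. Over both times it passed as higher without Cre for 41 replication and 42 mitosis genes, and as lower for 1 replication gene, Ccnd1, at -0.11. Top2a changed by -0.41 without Cre at 60 h and by -0.55 with CreER, and at 36 h by -0.05 without Cre and -0.77 with CreER. Its difference between the genotypes over both times was 0.43 ± 0.0411 (limma adjusted p = 8.07e-06), but at 60 h alone it was 0.14 and did not pass. Chek1 changed by -0.59 without Cre at 60 h and by -1.35 with CreER, a difference of 0.76 at that time (limma adjusted p = 0.00828).

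The p53 targets also separated the genotypes. Without Cre 1 of 25 rose at 60 h, with a median of 0.0064, against 18 and a median of 0.74 with CreER, and by the test of the difference 14 were lower without Cre at 60 h and 16 over both times. Cdkn1a changed by 0.19 without Cre at 60 h and by 1.13 with CreER, and its difference over both times was -0.88 ± 0.0888 (limma adjusted p = 1.19e-05). Bbc3 changed by 0.56 without Cre and by 1.31 with CreER, a difference of -1.02 over both times (limma adjusted p = 1.81e-04). Lysosomal genes were higher with 4OHT in both genotypes at 60 h, 6 of 26 without Cre and 19 with CreER. Of all genes tested, 4.56% rose without Cre and 16.2% with CreER at that time. By the test of the difference 3 lysosomal genes were lower without Cre at 60 h, against 5.68% of all genes, and 11 over both times.

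The stress genes had a different pattern. Without Cre 14 of 35 rose and 1 fell at 60 h, against 7 and 8 with CreER. Of all genes tested at 60 h, 4.56% rose and 2.86% fell without Cre, against 16.2% and 13.5% with CreER. At 60 h the difference between the genotypes passed as higher without Cre for 12 of the 35 genes and as lower for 2, Ddit3 and Xbp1, where 876 of all genes passed (11.5%), 443 higher (5.82%) and 433 lower (5.68%). Asns had 3028 and 2822 with 4OHT and 1771 and 1658 with vehicle without Cre at 60 h, and 2492 and 2500.1 with 4OHT and 2941 and 2772 with vehicle in CreER cultures. It rose in the first and fell in the second, by 0.19, and the difference at 60 h was 0.96 ± 0.0729 (limma adjusted p = 1.54e-06). Atf5 rose without Cre at 60 h and changed by -0.02 with CreER, where it had risen by 0.69 at 36 h.

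Ddit3 had the reverse order, with a change of 0.17 without Cre and a rise of 0.92 with CreER at 60 h, a difference of -0.73 over both times (limma adjusted p = 0.00277). Trib3 rose in both genotypes, by 1.29 at 36 h and 0.45 at 60 h with CreER, and the difference over both times was -0.18 and did not pass (limma adjusted p = 0.414). Bcat1 rose without Cre and fell by 0.36 with CreER over both times, a difference of 0.80 ± 0.0926 (limma adjusted p = 3.9e-05). Of 19 sterol genes, 10 rose without Cre at 60 h and 7 with CreER, and none fell in either. Of all genes tested, 4.56% rose without Cre and 16.2% with CreER. The median change of the sterol genes was 0.21 without Cre and 0.0985 with CreER. The difference at 60 h passed as higher without Cre for 2 of the 19, against 5.82% of all genes, and as lower for none. Of the 10 sterol genes that rose without Cre at 60 h, Fdft1 rose by 0.23 in both genotypes. Mvk changed by 0.52 without Cre at 60 h and by -0.12 with CreER, where it did not pass, and the difference at 60 h was 0.64 (limma adjusted p = 0.00217).

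**Figure D3:**
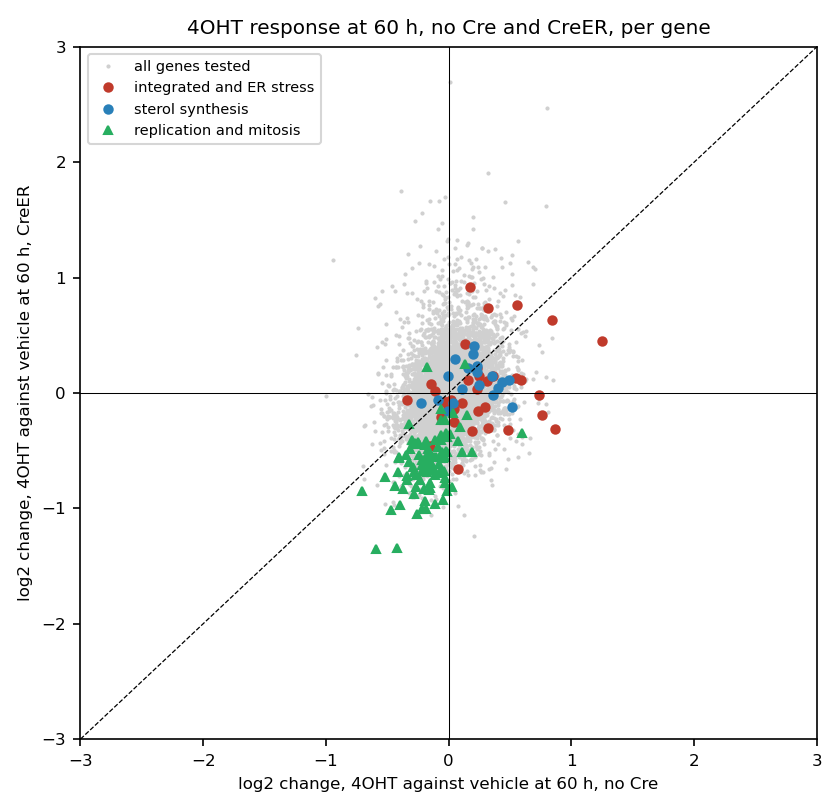
Log2 change with 4OHT at 60 h of every gene tested, without Cre (horizontal axis) and with CreER (vertical axis), with stress, sterol, and replication and mitosis genes marked and a dashed line where both are equal. Asns lies at 0.76 without Cre and -0.19 with CreER, and Chek1 at -0.59 without Cre and -1.35 with CreER.

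By its brightest probe set, Igfbp5 changed in opposite directions in the 2 genotypes. Without Cre all arrays with 4OHT were lower, as given above. With CreER they had 353 and 362 with 4OHT and 278 and 190.5 with vehicle at 36 h, and 802 and 1094 with 4OHT and 419 and 407 with vehicle at 60 h, a rise of 0.88 over both times. The difference of the responses was -1.66 ± 0.139 (limma adjusted p = 2.42e-06). A second Igfbp5 probe set gave a smaller difference of -0.61 that did not pass (limma adjusted p = 0.3145). Acss1 fell without Cre and rose by 0.58 with CreER (difference -1.16, limma adjusted p = 4.91e-05), and so did Thy1 (-0.72, 2.13e-04), Camk1g (-0.65, 2.43e-04) and Atp1b2 (-0.52, 2.55e-04). Thy1 was dim without Cre, at 88.6 to 161, and bright in CreER cultures, at 2075 to 2986, so its changes come from very different levels.

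The 36 genes that lead the CreER response were chosen from that response, so only their values without Cre are informative. Of these, 5 rose and 6 fell without Cre at 60 h, against 4.56% and 2.86% of all genes. The difference between the genotypes over both times passed for 35, 19 higher and 16 lower without Cre, against 19.2% of all genes. Genes chosen for a large CreER response are likely to pass that test, so nothing is concluded from the count of 35. Ptp4a3, a phosphatase, had 3329 and 3347 with 4OHT and 3521 and 3545 with vehicle at 60 h without Cre, and 3587 and 3825 with 4OHT and 1237 and 1078 with vehicle with CreER. Its change over both times was -0.17 without Cre, which did not pass, and 1.35 with CreER. Cryab, a small heat-shock protein gene, had 610.3 and 551 with 4OHT and 582 and 572 with vehicle at 60 h without Cre, and 339.7 and 372 with 4OHT and 61.9 and 26.2 with vehicle with CreER. In both genes the vehicle level without Cre was far above the vehicle level with CreER.

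Pygm, muscle glycogen phosphorylase, changed by -0.35 over both times without Cre, which did not pass, and by 1.40 with CreER, and Gsn, gelsolin, by -0.23 and 1.35. Klf2 rose in both at 60 h, by 0.79 without Cre and by 1.62 with CreER, and Dusp1 by 0.52 without Cre and 1.20 with CreER. Car3, a carbonic anhydrase, changed by 0.23 over both times without Cre, which did not pass, and by -0.92 with CreER. The plot of these 36 genes shows the change over both times together, in both genotypes.

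**Figure D4:**
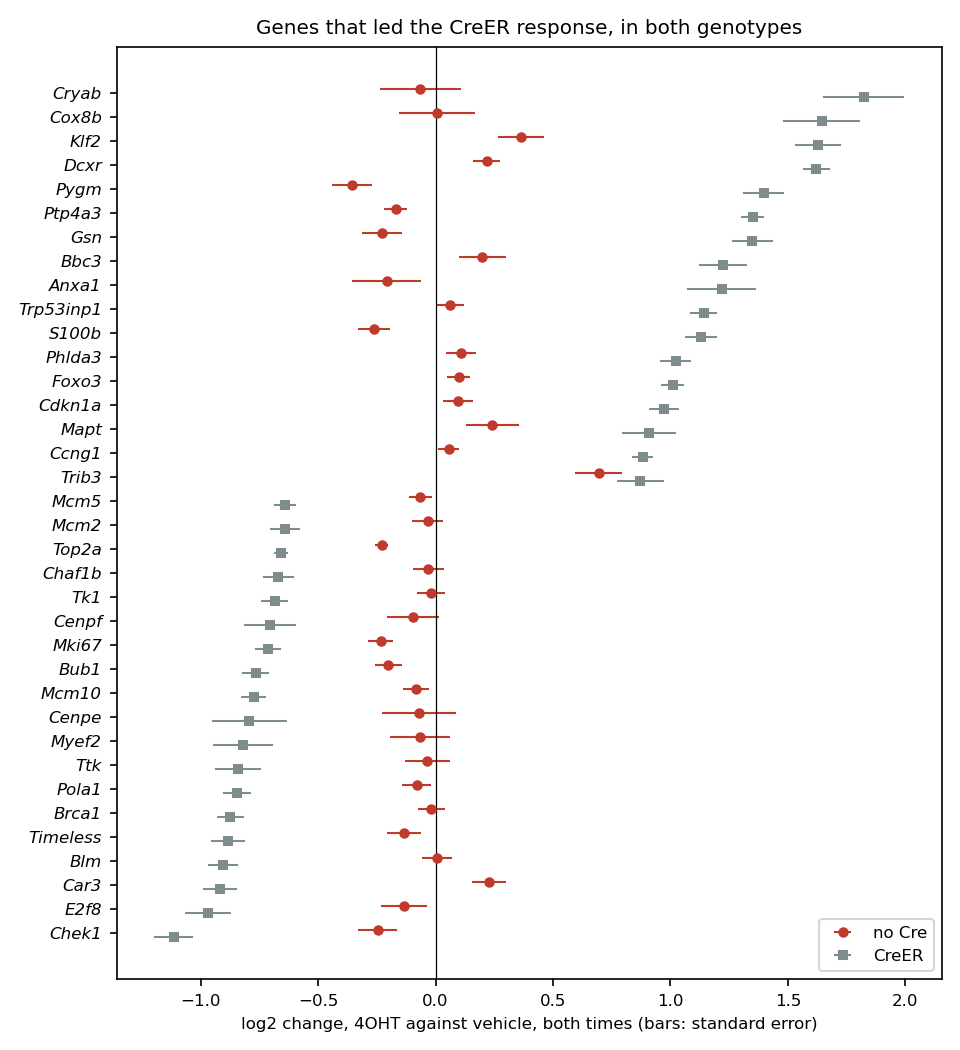
Log2 change with 4OHT (horizontal axis), with its SE, of the 36 genes that lead the CreER response, over both times together, red without Cre and grey with CreER. Genes are ordered from bottom to top by their change with CreER, from the lowest to the highest.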

How the data were processed

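RNA from 16 cultures was measured on 16 Affymetrix arrays. Per the submitters' processing notes, MAS5 was used, and the version was not given in the sources used here. The deposited values are linear signal intensities, 1 for each of 22690 probe sets, and the authors' target for scaling the intensities was not given in the sources used here. Medians of the deposited intensities ranged from 92.2 to 132.6, a ratio of 1.44.

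The 64 control probe sets were left out and the other 22626 quantile normalised over the 16 arrays. A pseudocount of 16 was added before taking log2. Each gene with 1 symbol was read from its brightest probe set, and 7618 of 12393 genes with a mean at or above the 40th percentile were tested. Of 20393 symbols, 20364 matched the RefSeq table by Entrez ID and 0 changed. One limma model (limma 3.58.1, R 4.3.3) of 8 group means gave every comparison by contrasts, with eBayes trend and Benjamini-Hochberg adjustment over all genes tested. It has 8 residual degrees of freedom. The limma procedure was tested on simulated data. Precision is limited by having 2 arrays a group.

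The genes named are, in each direction, the 12 that passed with the greatest change and with groups that did not overlap, the 6 largest each way for differences of responses, up to 5 each way with the smallest p where none passed, and up to 4 members of each list with the smallest p. The members and the 29 lists were chosen with earlier results of these data known. Other genes given with values, such as Pck2, Flcn, Aacs, Ncl, Hnrnpd, Sars and further list members, were chosen after their values were seen. Same-numbered arrays were not treated as pairs, since their deviations correlated at 0.292 and -0.0763 without Cre and at 0.112 and -0.0653 with CreER.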

Additional observations from a re-analysis of the deposited data

Results flagged for a closer look

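Some named genes had a response to 4OHT without Cre at 60 h that differed from the response at 36 h by limma's test of the difference itself (adjusted p under 0.05). For 10 of these the change at 60 h was the higher one. On the log2 scale these differed between the times as follows: Cox8b by 1.59, Trib3 by 1.11, Slc35b4 by 1.02, AI413582 by 0.95, Klf2 by 0.85, Tmem229b by 0.85 and Chac1 by 0.75. Smaller differences were those of Asns by 0.73, Eif4ebp1 by 0.69 and Atf5 by 0.65. For the other 7 it was the lower one. They differed as follows: Ccne2 by -0.96, Ranbp2 by -0.90, Bms1 by -0.84, Clcn3 by -0.83, Pnn by -0.73, Chek1 by -0.70 and Blm by -0.53.

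Other named genes responded differently without Cre than with CreER, by the same kind of test over both times. The response was higher without Cre for 13 genes. The differences were those of Car3 by 1.14, Crb3 by 0.998, Spata5 by 0.97, Lrr1 by 0.94, Blm by 0.91, Serinc4 by 0.90 and Chek1 by 0.87. Below these came Bcat1 by 0.80, Ccne2 by 0.59, Asns by 0.36, Eif4ebp1 by 0.35, H2-K1 by 0.32 and Mrps6 by 0.29. Other probe sets of Spata5 differed by 0.13 and 0.36 and another of Lrr1 by 0.30, and none of them passed. The response was lower without Cre for 15 genes. Here the differences were those of Cryab by -1.89, Pygm by -1.75, Igfbp5 by -1.66, Cox8b by -1.64, Gsn by -1.58, Ptp4a3 by -1.52 and Klf2 by -1.26. Next came Acss1 by -1.16, Malat1 by -1.05, Thy1 by -0.72, Camk1g by -0.65, Dusp1 by -0.64, Atp1b2 by -0.52 and Ppp1r3c by -0.33. Tmem158 differed by -0.29.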

How the results depend on the processing

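No named gene's change that passed turned its direction under any alternative run. Summaries did turn with the signals as deposited: the median of all genes over both times was -0.056, against 0.01 as reported, and the 36 h medians were -0.12 and -0.079 for mitosis and replication genes, against 0.028 and 0.067. The reported counts of genes called are 62 over both times, 0 at 36 h, 565 at 60 h, 174 for the time difference, 1463 for the genotype difference and 2954 in CreER cultures. The share of CreER-called genes also called in the same direction without Cre is 1.12%. With the signals as deposited the counts were 5, 3, 13, 2, 178 and 942, the share was 0.106%, and 5 stress, 0 sterol, 0 lysosomal, 0 mitosis and 0 replication genes passed at 60 h. Calls then ran mainly lower in some comparisons. The share of calls that were higher was 20% over both times, 76.9% at 60 h, 34.8% for the genotype difference and 32.4% in CreER cultures. With each array scaled to a common median the counts were 20 over both times, 183 at 60 h and 27 for the time difference, the share was 0.358%, and 5 mitosis and 3 replication genes passed, with 70% of calls higher over both times, 77.8% for the time difference, 771 higher and 425 lower for the genotype difference, and 1056 higher and 1457 lower in CreER cultures. With no filter on low values 40, 335 and 58 genes passed over both times, at 60 h and for the time difference, and the share was 0.671%. Testing every probe set gave 1 at 36 h, 100 for the time difference, 22 stress probe sets and a share of 0.609%. Without a trend in eBayes 20, 298 and 28 passed over both times, at 60 h and for the time difference, with 5 sterol and 5 mitosis genes and a share of 0.358%. The 8 arrays without Cre alone gave 39 over both times and 1 at 36 h. The actin ratio as a covariate gave 104, 372 and 67 over both times, at 60 h and for the time difference, 6 sterol, 7 mitosis and 4 replication genes, and a share of 1.81%. The contrast at 60 h alone, an alternative chosen after seeing the data like those for the 5 lists, gave 876 genes for the genotype difference. With the replicate number as a block 33 genes passed over both times, 538 at 60 h, 175 for the time difference, 1519 for the genotype difference and 2954 in CreER cultures, and the share was 0.508%. For each of these the cause was not tested.

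With 1 array left out the counts ranged from 13 to 39 over both times, 0 to 1 at 36 h, 95 to 209 at 60 h, 21 to 74 for the time difference, 1162 to 1472 for the genotype difference and 2401 to 2734 in CreER cultures, and the share from 0.208% to 1.33%. The share was 0.512% and 0.342% without 4OHT replicate 1 and 4OHT replicate 2 at 36 h, 0.208% and 0.381% without those of 60 h, 0.684% and 0.376% without vehicle replicate 1 and vehicle replicate 2 at 36 h, 0.656% and 0.415% without those of 60 h, and at least 0.801% without any one CreER array. The list counts ranged from 6 to 8 for stress, 5 to 6 for sterol, 1 to 5 for lysosomal, 1 to 6 for mitosis and 0 to 4 for replication genes. Where 1 array was left, it was assumed to vary like the other groups. Named genes that passed still did so in 456 cases and no longer did in 180 under the other alternatives, and in 349 against 225 cases with an array left out. Genes with a mean under the filter, a signal of 51.4, were not tested.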
